A study of Mus musculus with 12 samples.

Results

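Cells sorted from the injured spinal cord 2 weeks after full transection (FT 2 weeks) were compared with cells sorted 1 week after the same lesion (FT 1 week), which follows the response to the severe injury over time. The comparison uses 4 of the 12 libraries of the series, chosen by injury and time label: 3 libraries of FT 2 weeks and the single library of FT 1 week. Values are normalized read counts (gene counts divided by 1 factor per library), and 16388 genes were tested. All groups were adult male Aldh1l1-EGFP mice on a Swiss Webster background, in which the promoter of Aldh1l1, an astrocyte gene, drives green fluorescent protein, and fluorescent cells were sorted from thoracic cord around the lesion. The other 8 libraries are 2 of hemisection 2 weeks (HS 2 weeks), 3 of hemisection 1 week (HS 1 week) and 3 of non-injured cord (NI); they set the spread in the statistical model and show whether a level is unusual. The study lists more animals than libraries, so a library may hold several animals, and p-values measure the spread between libraries.

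Full transection severs the cord completely, and monocytes, T cells and resident microglia gather at the lesion while astrocytes become reactive and form a scar. Interferon gamma, a cytokine of T and NK cells, strongly induces 2 families of GTPases in mice: the immunity-related GTPases (IRG, such as Iigp1, Igtp and Irgm1) and the guanylate-binding proteins (GBP). These proteins attack the vacuoles of intracellular parasites and bacteria. The same cytokine induces the MHC class II transactivator Ciita, antigen-processing genes such as Tap1, and the T cell attractant Cxcl9.

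FT 2 weeks libraries held 14030640, 9070270 and 12400667 reads and the FT 1 week library 8270643. A single read was worth 0.073, 0.117 and 0.0741 normalized counts in FT 2 weeks libraries and 0.134 in FT 1 week. The FT 1 week library stood apart from those of FT 2 weeks and has no replicate. On the first principal component, the main axis of spread over all genes (44.2% of it), it lay at 35.1. FT 2 weeks libraries lay there at -29.6, -44.8 and -33.7. NI libraries lay at -44.0, 35.5 and 58.7, so libraries of the same group could also lie far apart. The correlations below cover FT libraries alone. Log2 values of FT 1 week correlated with those of FT 2 weeks libraries at 0.928 to 0.945 (Pearson, across genes), whereas FT 2 weeks libraries correlated with each other at 0.973 to 0.981. The FT 1 week library could not be left out, because it is the whole FT 1 week group. A difference between the times and a difference of this library from the rest therefore cannot be told apart. The labelled cell type was checked against marker lists: 20 homeostatic astrocyte genes summed to 8052, 8468 and 9930 normalized counts at FT 2 weeks and 4231 at FT 1 week, and 12 mature oligodendrocyte genes summed to 89150, 102800 and 57260 at FT 2 weeks and 86280 at FT 1 week. Oligodendrocyte transcripts thus outnumbered those of astrocytes in all 4 libraries. In bulk RNA, fewer cells of a type and less RNA per cell cannot be told apart.

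Most IRG and GBP GTPases fell at FT 2 weeks, and a small set of other genes rose. Of 16388 genes tested, 46 were lower and 17 higher at FT 2 weeks (limma-trend, Benjamini-Hochberg adjusted p under 0.05 and at least 2-fold), which is 0.281% and 0.104% of all genes, 0.384% together. Falls spanned -1.76 to -5.98 and rises 1.93 to 5.68 on the log2(normalized count + 1) scale, and the median of all genes was -0.01. Among the 46 genes that fell, 21 belonged to the lists of GTPases, interferon-stimulated genes, MHC presentation, chemokines or T and NK cell genes. Of these 21, 14 were GTPases, so the pooled count mostly restates that list. Among GTPases 14 of 19 measured genes fell, against 0.281% of all genes, which is the background share for each list. The other lists gave 2 of 30 interferon-stimulated, 2 of 17 MHC class I and 1 of 12 MHC class II genes. Chemokines gave 1 of 20, and T and NK cell genes 1 of 12. All lists were chosen with earlier results of these data known, so these shares are descriptions. The count depended on the test: edgeR called 8 higher and 32 lower with its quasi-likelihood test and 58 higher and 126 lower with its likelihood ratio test, and DESeq2 called 111 higher and 109 lower. Without FT 2 weeks replicate 1 or 2, 38 or 36 genes were called in place of 63.

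**Figure D1:**
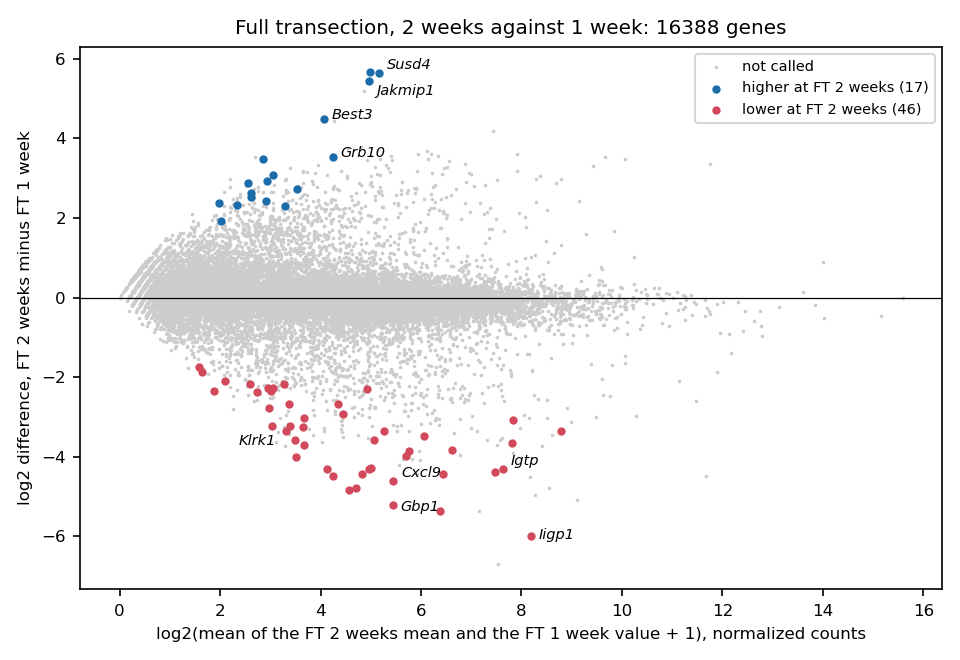
Each point is 1 of 16388 genes, with the log2 mean level of both times on the x axis and the log2 difference of FT 2 weeks minus FT 1 week on the y axis, both on normalized counts + 1. The 46 genes called lower reach -5.98 (Iigp1) and the 17 called higher reach 5.68.

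The rank of FT 1 week among all libraries follows in part from how the genes were called and is given as a description. For all 46 genes that fell, FT 1 week was the highest of all 12 libraries, as it was for 7.98% of all genes. For all 17 genes that rose, FT 1 week was the lowest of the 12, as it was for 11.5% of all genes. The mean of FT 2 weeks lay within the range of the 8 HS and NI libraries for 44 of the 46 genes that fell and for 11 of the 17 that rose, against 92.1% of all genes.

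The IRG and GBP GTPases were the leading group. Their list was chosen with earlier results of these data known, so its shares describe these data and are no test. Of 20 listed genes 19 were measured, and 14 of them fell, against 0.281% of all genes; all 19 had every FT 2 weeks library below FT 1 week, as had 28.6% of all genes. Their median log2 difference was -3.57, against -0.01 over all genes. Summed over the list, FT 2 weeks libraries held 137.9, 222.5 and 168.7 normalized counts and FT 1 week 2784. The 8 HS and NI libraries lay between 103.6 and 234.0, so that FT 2 weeks was in the range of the other groups and FT 1 week above it.

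Iigp1, an IRG protein that coats parasite vacuoles, had 4.89, 15.7 and 6.67 normalized counts at FT 2 weeks and 575 at FT 1 week. It fell by 5.98 on the log2 scale (SE 0.581, limma-trend adjusted p = 0.00168), and its 8 HS and NI libraries lay between 2.09 and 10.8. Iigp1 lies at chr18:60376027-60392634 (GRCm38, plus strand). Igtp (also called Irgm3), an IRG regulator, had 11.4, 25.2 and 20.3 at FT 2 weeks and 375 at FT 1 week (log2 difference -4.30, SE 0.503, adjusted p = 0.00513). Irgm1, a regulator of autophagy and of other IRG proteins, had 27.8, 32.3 and 37.1 at FT 2 weeks and 416 at FT 1 week (-3.65). In these 3 genes no FT 2 weeks library came near FT 1 week. Irgm2 had 5.33, 6.52 and 6.30 at FT 2 weeks against 101 (-3.85). Tgtp1 and Tgtp2 were close to the limit of detection at FT 2 weeks, where Tgtp2 had 0.511, 0.583 and 0.964 against 32.1 at FT 1 week (-4.30) and Tgtp1 had 0.438, 1.28 and 0.519 against 19.6 (-3.59). Tgtp1 and Tgtp2 are near-identical copies, so the division of reads between them is uncertain, and the annotated spans of Igtp and Irgm2 overlap.

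GBP genes moved alike. Gbp2 had 9.79, 21 and 17 normalized counts at FT 2 weeks and 338 at FT 1 week (log2 difference -4.38, SE 0.529, adjusted p = 0.00513). Gbp7 was the most abundant at FT 2 weeks, with 42.9, 61.2 and 39.5, against 405 at FT 1 week (-3.08, adjusted p = 0.0196). Gbp3 had 7.08, 13.2 and 10.2 against 121 (-3.49). The spread among FT 2 weeks libraries was small beside the distance to FT 1 week. Gbp4, Gbp5, Gbp6 and Gbp8 also fell, with differences of -4.29, -2.68, -3.57 and -3.26, as did F830016B08Rik, a GTPase-like gene (-2.69). Gbp1, in current RefSeq naming Gbp2b, is outside the list and fell too: it had 0.949, 0.932 and 2.15 at FT 2 weeks and 83.9 at FT 1 week (-5.22, adjusted p = 0.000569).

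Members that did not pass the test were Ifi47 (log2 difference -3.54), Gm4951 (-4.07), Gbp9 (-2.92), Gbp10 (-1.93) and Gbp11. Gbp11 had 6.35, 7.57 and 3.63 normalized counts at FT 2 weeks and 8.46 at FT 1 week (-0.51, adjusted p = 0.871), the smallest difference of the list. Further IRG genes outside the list fell too, among them Gm12250 (Irgb10), which had 1.75, 3.38 and 4.15 at FT 2 weeks and 161 at FT 1 week (-5.35, adjusted p = 0.00168), and Gm12185 (Irgb2b1), with -2.16. GBP and IRG genes are multigene families, and reads of close copies may have been divided between them.

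**Figure D2:**
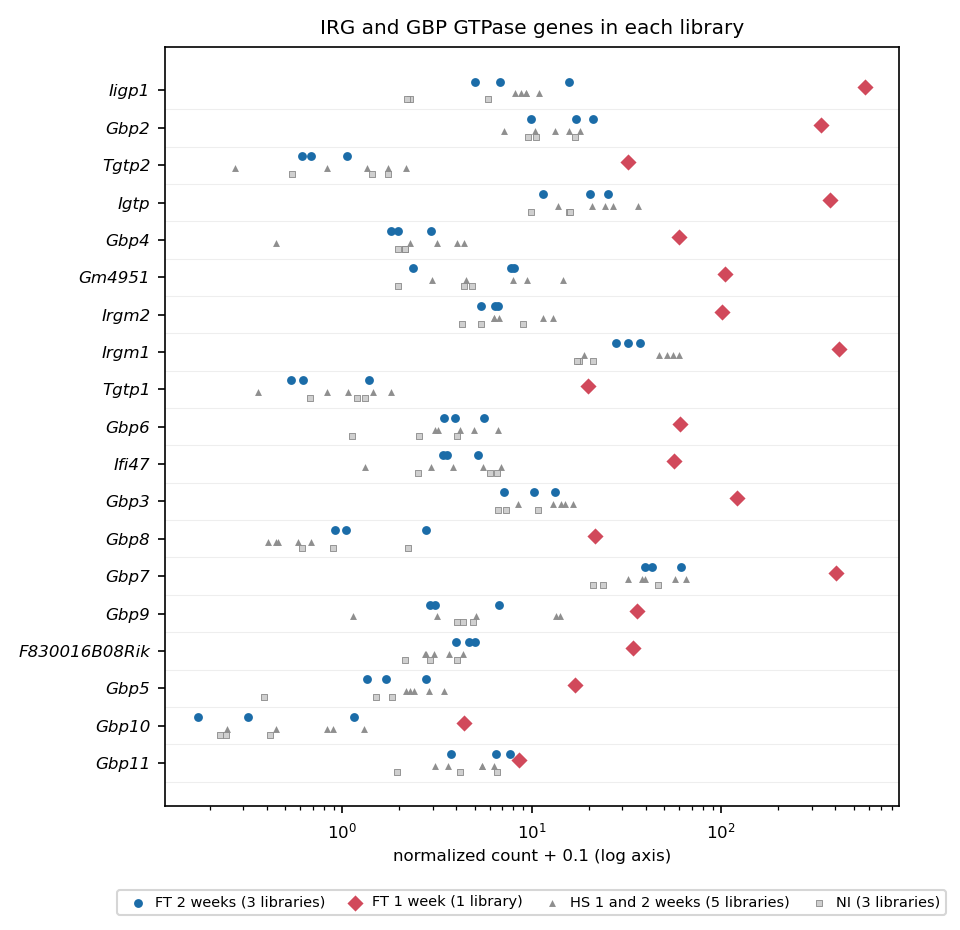
Normalized counts + 0.1 on a log axis for the 19 measured IRG and GBP genes, 1 point per library, in the order of the log2 difference. FT 1 week (1 library) lies above all 3 libraries of FT 2 weeks in every gene, by the least in Gbp11 (8.46 at FT 1 week).

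Promoter letters of these genes are given as a description. As background, the gamma-activated site and the interferon-stimulated response element are short motifs known from interferon-inducible genes. RefSeq promoters (GRCm38.p6, 250 bases before to 50 after the start) were searched on both strands for the element core (GAAA, 2 bases of any kind, GAAA), the site TTCNNNGAA, and both together (the site, 2 bases, the core); the joint motif holds matches of both others. The 2 last motifs were chosen after values had been seen. A promoter was at hand for 10 of 19 listed genes and 31 of 46 genes that fell, under the 80% required, so the search is void as a check of the list and describes only the promoters at hand. The core was found in 9 of these 10 promoters, in 13 of 31 among the genes that fell, in 0 of 13 among those that rose and in 3.74% of 12844 promoters of tested genes. Among genes that fell outside the list it was in 4 of 22: Aoah and the GTPase genes Gbp1, Gm12185 and Gm12250. The site was in 6 of 10 and in 8.36% of all. The joint motif stood in 5 promoters of 12844 (0.0389%), those of Igtp, Irgm2, Tgtp1, Tgtp2 and Gm12185, all of which fell. They are related genes of 1 chromosome and share sequence by descent. Shown are 4 of them, with both matches in capitals, 5′ to 3′ on the strand of the gene. Igtp at chr11:58199492-58199551 and Irgm2 at chr11:58214883-58214942 are on the plus strand, and Tgtp1 at chr11:48992294-48992353 and Tgtp2 at chr11:49064253-49064312 on the minus strand.
Igtp: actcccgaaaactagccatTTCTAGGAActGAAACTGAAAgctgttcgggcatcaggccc
Irgm2: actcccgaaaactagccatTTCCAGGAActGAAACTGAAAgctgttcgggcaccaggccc
Tgtp1: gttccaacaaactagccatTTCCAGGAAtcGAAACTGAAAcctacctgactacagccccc
Tgtp2: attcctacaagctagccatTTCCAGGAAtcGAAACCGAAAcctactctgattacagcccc

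In each of these 4 the site began 11 bases before the core, and the core began 34, 64, 77 and 70 bases before the start. Of 4 listed GBP genes with a promoter at hand, Gbp2 and Gbp3 held the core without the site, and Gbp5 and Gbp7 held both but not the joint motif. The first of these pairs is shown as a contrast with the IRG promoters, with the core in capitals on the opposite strand. Gbp2 at chr3:142620574-142620633 and Gbp3 at chr3:142559969-142560034, where 2 matches overlap, are on the plus strand and differ in the spacer bases. A match is a description of letters and not of binding.
Gbp2: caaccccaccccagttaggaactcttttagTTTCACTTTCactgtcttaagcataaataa
Gbp3: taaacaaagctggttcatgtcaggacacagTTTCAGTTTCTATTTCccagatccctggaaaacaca

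Of 30 listed interferon-stimulated antiviral genes, 2 fell, against 0.281% of all genes, and 29 had all FT 2 weeks libraries below FT 1 week, against 28.6% of all genes (median log2 difference -1.90). The same 2 shares are the background of the lists of antigen presentation, chemokines, T and NK cells, macrophages and mitosis. Zbp1, a sensor of nucleic acids that can trigger cell death, had 0.949, 2.10 and 3.56 at FT 2 weeks and 58.6 at FT 1 week (-4.30, adjusted p = 0.0307); its call held in 16 of 25 alternative settings, with adjusted p up to 0.121. FT 1 week was the highest of all 12 libraries for Zbp1. Isg15, Ifit1 and Irf7, of the same list, differed less than Zbp1 and did not pass limma-trend. Isg15, a ubiquitin-like modifier, had 8.47, 13.3 and 14.3 against 49.2 (-1.98, adjusted p = 0.30), and Ifit1 18.1, 34.3 and 28.1 against 72.7 (-1.45). Irf7 had 40.1, 44.3 and 32.7 against 183 (-2.21). It was called lower by edgeR's likelihood ratio test (FDR 0.0112) and by DESeq2 (FDR 0.0323). With edgeR's likelihood ratio test 9 of the 30 were called lower, against 0.769% of all genes. Isg15, Ifit1 and Irf7 were named after their values were seen.

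Few genes of antigen presentation passed. For MHC class I, 17 of 20 genes were measured, all had FT 2 weeks below FT 1 week (median -2.04), and 2 fell. Tap1, which carries peptides into the endoplasmic reticulum, had 11.8, 9.79 and 14.1 normalized counts at FT 2 weeks and 181 at FT 1 week (-3.83, SE 0.563, adjusted p = 0.0145), and Nlrc5, the transactivator of class I genes, had 8.98, 10.3 and 8.67 against 49.3 (-2.29, adjusted p = 0.023). For MHC class II, all 12 genes had FT 2 weeks below FT 1 week (median -3.22), and Ciita alone passed. Ciita had 5.48, 2.91 and 4.23 at FT 2 weeks and 37.6 at FT 1 week (-2.92, adjusted p = 0.0342); its call held in 15 of 25 alternative settings, with adjusted p up to 0.138. Its targets Cd74 and H2-Ab1 showed larger differences and a wider spread between libraries, while the list as a whole ran from -5.10 to -1.60. Cd74, the invariant chain, had 205, 226 and 465 at FT 2 weeks and 6252 at FT 1 week (-4.49, SE 1.19, adjusted p = 0.23), and H2-Ab1 17.9, 25.2 and 59.5 against 1062 (-5.10, adjusted p = 0.124). The likelihood ratio test of edgeR called 10 class I and 7 class II genes lower. Cd74 and H2-Ab1 were named after their values were seen.

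Among 20 chemokine ligands, Cxcl9 fell, with 1.31, 3.85 and 2.59 normalized counts at FT 2 weeks and 82.9 at FT 1 week (-4.61, SE 0.669, adjusted p = 0.0141). The call of Cxcl9 held in 21 of 25 alternative settings, with adjusted p up to 0.109. Cxcl10, a close relative of Cxcl9, had 8.33, 8.39 and 13.1 at FT 2 weeks and 48.3 at FT 1 week (-2.20, adjusted p = 0.32), and Ccl5, a chemokine of T cells and myeloid cells, 8.69, 13.7 and 33.6 against 181 (-3.42, adjusted p = 0.442). Cxcl10 and Ccl5 were named after their values were seen. The list as a whole was mixed, with 12 genes below FT 1 week in all FT 2 weeks libraries and 3 above it.

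Markers of T and NK cells were sparse. Of 21 genes 12 were measured, and 1 fell: Klrk1, which encodes the activating receptor NKG2D, had 0.584, 0.816 and 1.04 normalized counts at FT 2 weeks and 22.6 at FT 1 week (-3.71, SE 0.372, adjusted p = 0.00195). The T cell receptor subunit Cd3e had 0.511, 0.816 and 0.445 at FT 2 weeks and 0.94 at FT 1 week, equal to 7 reads, and Klrd1, an NK cell receptor, had 0.672 at FT 1 week. Cd3d had 0.365, 0.35 and 0.89 at FT 2 weeks and 0.672 at FT 1 week, and Cd8a 0.73, 0.583 and 0.741 against 1.88. The receptor subunits were thus near the limit of detection at both times. Gzmb, a protease of killer cells, had 0.803, 8.39 and 2.08 at FT 2 weeks and 10.9 at FT 1 week (-1.67, adjusted p = 0.758). The list summed to 18.04, 29.94 and 44.25 at FT 2 weeks and 228.9 at FT 1 week, of which Ccl5 made up 181; the other 8 libraries summed to 15.7 to 123.6. The part of these cells in the other results was not tested.

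Other genes that fell have varied known roles. Il18bp, a secreted inhibitor of interleukin 18 that interferon gamma induces, had 3.43, 6.76 and 5.71 normalized counts at FT 2 weeks and 96.4 at FT 1 week (-3.99, adjusted p = 0.00809). Serpina3g, a protease inhibitor of activated immune cells, had 7.01, 3.26 and 8.45 against 68.8 (-3.35, adjusted p = 0.0271). Batf2, a transcription factor of myeloid cells, had 0.803, 0.233 and 1.48 against 17.1 (-3.35), and Ly6i, a surface antigen of the Ly6 family, 0.292, 0.35 and 0.371 against 20.4 (-4.0). In these 4 genes FT 1 week alone stood out. Klra2, a receptor of the Ly49 family, and Aoah, a lipase that detoxifies bacterial endotoxin, fell by 3.23 and by 3.03 on the log2 scale.

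Several genes of other or unassigned roles also fell. Gm15070 had 0.511, 1.28 and 0.741 normalized counts at FT 2 weeks and 49.4 at FT 1 week (-4.79, SE 0.303, adjusted p = 0.000151), the smallest adjusted p of the comparison. Galnt13, a glycosyltransferase, had 10.8, 5.01 and 5.34 at FT 2 weeks and 165 at FT 1 week (-4.44, adjusted p = 0.00704). Mrap2, an accessory protein of melanocortin receptors, had 1.10, 1.75 and 1.70 against 53.5 (-4.45, adjusted p = 0.00109). As with the GTPases, FT 1 week alone was high. Neu2, a sialidase, had 0.438, 0.466 and 1.04 against 35.5 (-4.49), and 4933433G15Rik, a long noncoding RNA, 0.584, 0.466 and 0.741 against 45 (-4.85). Gm4841, which RefSeq also names Ifgga3, an interferon-inducible GTPase gene outside the list, had 0.876, 1.05 and 1.19 against 18 (-3.22, adjusted p = 0.00809). Further genes that fell (Dazl, Nr1h5, 5730405O15Rik, Rspo1, 2510049J12Rik, Cacna1g, Ptpn3, Olfr70 and Selp) spanned -1.76 for Selp, the adhesion molecule P-selectin, to -2.77 for Dazl, an RNA-binding protein of germ cells. Saa3, an acute-phase protein named after its values were seen, had the largest difference of all genes without passing: 1.17, 1.75 and 6.15 at FT 2 weeks and 365 at FT 1 week (-6.71, SE 1.26, adjusted p = 0.0635).

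The 17 genes that rose had few reads at FT 1 week. They had 1 to 17 reads at FT 1 week, and 14 of them had 10 or fewer, whereas the 46 genes that fell had 27 to 6014. Susd4, an inhibitor of complement, had 71.1, 75.9 and 61.7 normalized counts at FT 2 weeks and 0.403 at FT 1 week (log2 difference 5.65, SE 0.466, adjusted p = 0.000765). With 3 reads at FT 1 week the ratio was 173, with a 95% counting interval of 59.1 to 837 (exact Poisson, for the FT 1 week reads). The 8 HS and NI libraries had 33.5 to 105, so that the library of FT 1 week alone was low. Susd4 lies at chr1:182763860-182896591 (GRCm38, plus strand).

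Jakmip1, which binds microtubules and Janus kinases, had 57.5, 65.6 and 56.2 normalized counts at FT 2 weeks and 0.403 at FT 1 week (5.43, SE 0.489, adjusted p = 0.00109; ratio 148, interval 50.7 to 719). Best3, of the bestrophin chloride channels, had 26.5, 26.3 and 41.1 at FT 2 weeks and 0.403 at FT 1 week (4.50, adjusted p = 0.0209; ratio 77.8, interval 26.6 to 377). Hoga1, a mitochondrial enzyme of hydroxyproline breakdown, had 9.49, 8.86 and 9.93 against 0.403 (2.89, adjusted p = 0.00513; ratio 23.4, interval 8.01 to 113). FT 2 weeks libraries were tight in Jakmip1 and Hoga1. The noncoding 9330162B11Rik had 32.7, 84.1 and 67.6 at FT 2 weeks and a single read at FT 1 week, 0.134 (5.68, SE 0.942, adjusted p = 0.0307). Its call held in 19 of 25 alternative settings, with adjusted p up to 0.129, and that of Best3 in 20.

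Grb10, an adaptor that restrains insulin receptor signalling, had 30.5, 42.5 and 29.4 normalized counts at FT 2 weeks and 2.01 at FT 1 week, equal to 15 reads (3.52, adjusted p = 0.0291). Il1r1, the receptor of interleukin 1, had 13.5, 18.6 and 13.6 at FT 2 weeks and 2.28 at FT 1 week (2.29, adjusted p = 0.0433). Gfpt2, of the hexosamine pathway, had 16.1, 23.2 and 18.3 at FT 2 weeks and 2.01 at FT 1 week (2.73, adjusted p = 0.0342). The calls of Grb10 and Gfpt2 held in 19 and 16 of 25 alternative settings. In Il1r1, Gfpt2, Zfp783 and Nipal2 every FT 2 weeks library also lay above all 8 HS and NI libraries, as in 0.866% of all genes; Il1r1 had 4.04 to 7.98 there in HS and 4.17 to 6.36 in NI. Slc26a9, Stap1, Pabpn1l, Zfp783, Lgals2, Vmn2r1, Lrrc43, Nipal2 and 1700018B08Rik also rose, by 1.93 to 3.47 on the log2 scale.

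**Figure D3:**
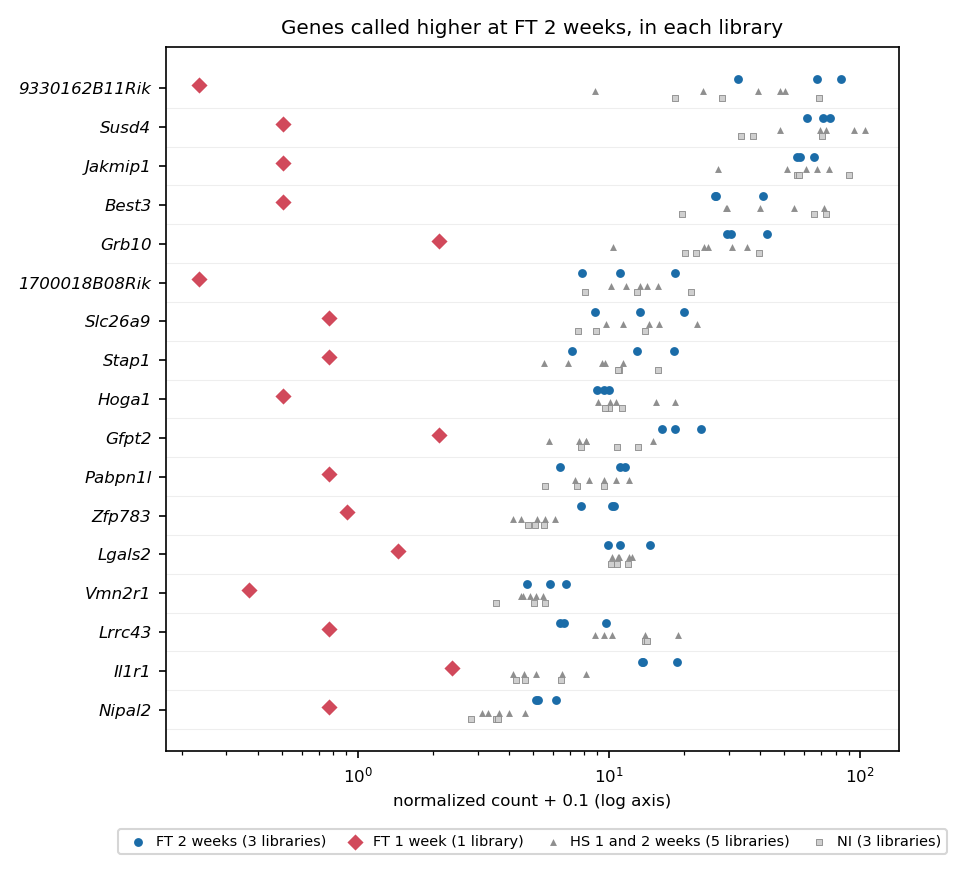
Normalized counts + 0.1 on a log axis for the 17 genes called higher at FT 2 weeks, 1 point per library. FT 1 week (1 to 17 reads) is the lowest of the 12 libraries in every gene.

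Cell type markers differed between the times without a call. Homeostatic astrocyte genes were higher at FT 2 weeks, with 18 of 20 above FT 1 week in all libraries (29.5% of all genes) and a median log2 difference of 2.61. None of the 20 passed limma-trend, edgeR or DESeq2, and 3 had an unadjusted p under 0.05, as had 9.17% of all genes; the counts at that threshold in the lists that follow are to be read against this share. Slc1a2, the main glutamate transporter, had 416, 521 and 843 normalized counts at FT 2 weeks and 67.2 at FT 1 week (3.06, SE 1.74, adjusted p = 0.669), and Aqp4, the water channel of astrocyte end feet, 440, 481 and 658 against 96.6 (2.41, adjusted p = 0.801). The reporter gene's source, Aldh1l1, had 87.4, 106 and 116 against 48.5 (1.06, adjusted p = 0.875). Gfap, the filament of reactive astrocytes, had 677, 1088 and 1081 against 304 (1.6, SE 1.47, adjusted p = 0.833). Levels of these genes also varied widely among HS and NI libraries, where Gfap lay between 33.3 and 1631. Slc1a2 and Aqp4 were named after their values were seen.

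No microglia or macrophage marker passed the test. All 12 pan-macrophage genes had FT 2 weeks below FT 1 week (median -2.58), and 0 of them passed limma-trend, edgeR or DESeq2, with 4 at an unadjusted p under 0.05. Csf1r, the receptor that maintains microglia, had 204, 114 and 163 normalized counts at FT 2 weeks and 1261 at FT 1 week (-3.01, adjusted p = 0.669), and C1qb, of the complement C1q complex, 299.7, 199 and 357 against 2199 (-2.98, adjusted p = 0.509). Together 24 microglia and macrophage genes summed to 3122, 2563 and 3981 at FT 2 weeks and 15550 at FT 1 week. This sum was lower at FT 2 weeks, as was that of the GTPases. In the 11 libraries other than FT 1 week the 2 sums did not run in the same order. The 2 HS libraries with microglia and macrophage sums of 18480 and 19500 had the highest GTPase sums, 226.2 and 234.0. NI replicates 2 and 3, with 9097 and 11710, had GTPase sums of 103.6 and 112.3. FT 2 weeks replicate 2, with 2563, had a GTPase sum of 222.5. With the microglia and macrophage sum as a covariate, 15 GTPases were called lower. FT 1 week has its own term in that model, so the slope of the covariate came from the other 11 libraries. The count therefore does not measure the part of these cells in the GTPase result, which was not tested.

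**Figure D4:**
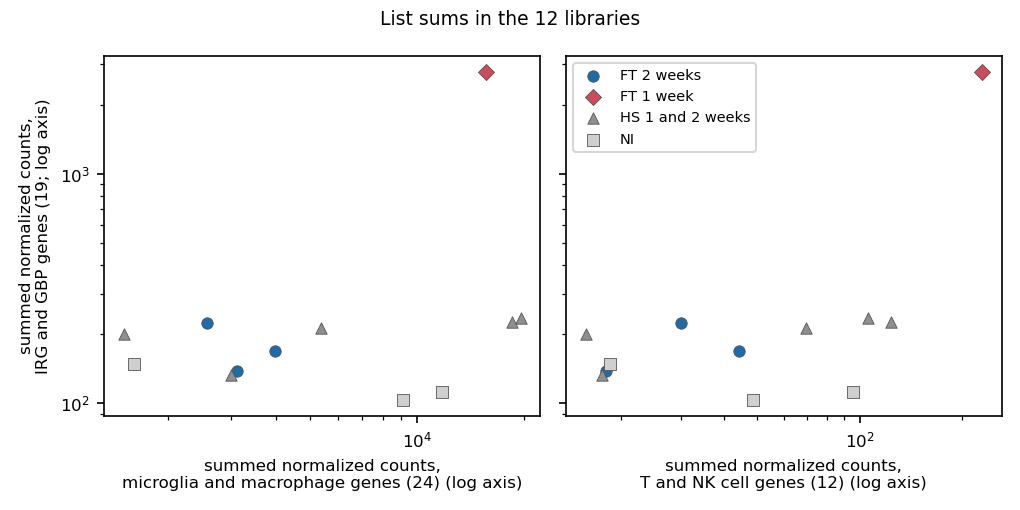
Summed normalized counts of 19 IRG and GBP genes (y axis, log) against those of 24 microglia and macrophage genes (left) and of 12 T and NK cell genes (right, both log), 1 point for each of the 12 libraries. FT 1 week has a GTPase sum of 2784 and the other libraries 103.6 to 234.0, of which 226.2 and 234.0 belong to the 2 libraries with microglia and macrophage sums of 18480 and 19500. NI replicates 2 and 3 have GTPase sums of 103.6 and 112.3 at microglia and macrophage sums of 9097 and 11710. FT 2 weeks replicate 2 has 222.5 at 2563.

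Genes of pericytes and fibroblasts, cells that are a source of the fibrotic scar, summed to 6159, 11700 and 8341 normalized counts at FT 2 weeks and 973.3 at FT 1 week. HS and NI libraries also varied widely, between 386.1 and 7088, and the highest of them was NI replicate 1, from non-injured cord. Of 11 measured genes 9 were above FT 1 week in all FT 2 weeks libraries (median 2.13), and 0 passed any of the tests, with 2 at an unadjusted p under 0.05. Dcn, a matrix proteoglycan, had 4185, 8846 and 5888 at FT 2 weeks and 586 at FT 1 week (3.36, SE 1.75, adjusted p = 0.625). Among 25 mitosis genes 23 were below FT 1 week (median -1.14), and 0 passed any of the tests, with 6 at an unadjusted p under 0.05. Mki67, a marker of cycling cells, had 5.11, 5.94 and 5.78 against 25.1 (-1.98, limma-trend adjusted p = 0.605). NI libraries had 6.99, 28.2 and 49.4, so that FT 1 week lay within the range of non-injured cord. Mki67 was named after its values were seen. Mature oligodendrocyte genes had a median of -0.23, and 0 of 12 passed any of the tests or had an unadjusted p under 0.05; Mbp, a myelin protein, had 14610, 19333 and 8509 at FT 2 weeks and 15127 at FT 1 week (-0.18).

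**Figure D5:**
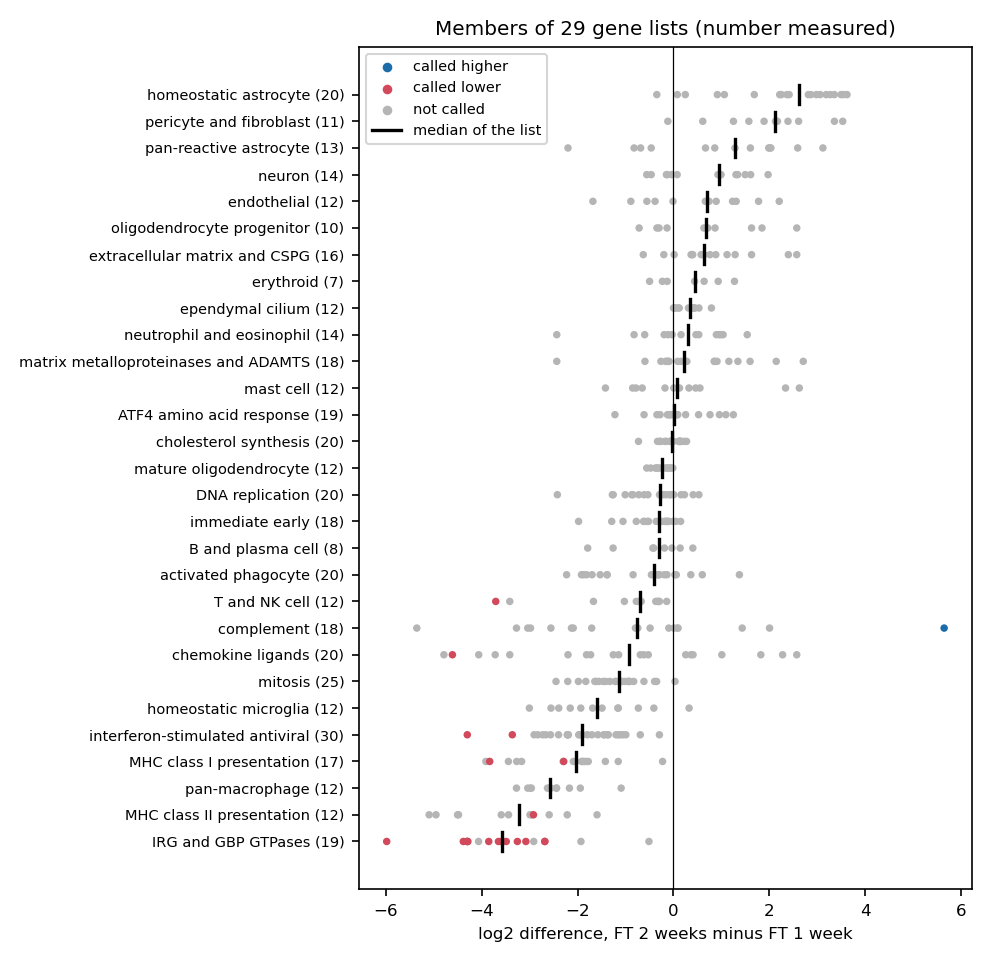
Log2 differences of FT 2 weeks minus FT 1 week for the measured members of 29 lists (number measured in parentheses), with the median of each list as a black bar. Medians run between 2.61 for homeostatic astrocyte genes and -3.57 for the IRG and GBP GTPases, which hold 14 of the calls.

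In the other lists few genes passed. Among 18 complement genes Susd4 alone rose, and 11 were below FT 1 week in all FT 2 weeks libraries, against 28.6% of all genes (median -0.77). The largest fall of the list was that of Cfb, named after its values were seen. Cfb had 2.99, 8.16 and 7.56 normalized counts at FT 2 weeks and 277 at FT 1 week (-5.36, limma-trend adjusted p = 0.156). It was called lower by edgeR's likelihood ratio test, which called 2 complement genes lower, and by DESeq2, which called 1. Homeostatic microglia genes had a median of -1.59 over 12 genes and activated phagocyte genes -0.40 over 20. Pan-reactive astrocyte genes were mixed, with 9 of 13 above FT 1 week and 3 below (median 1.28). No gene of these 3 lists passed limma-trend, edgeR or DESeq2, with 0, 1 and 5 at an unadjusted p under 0.05. Medians were 0.67 for oligodendrocyte progenitor, 0.96 for neuron, 0.70 for endothelial and 0.34 for ependymal cilium genes. Among blood cell lists they were -0.30 for B and plasma cell, 0.31 for neutrophil and eosinophil, 0.07 for mast cell and 0.44 for erythroid genes. These 8 lists had 0 genes passing in any of the tests, with 3, 3, 5, 0, 0, 1, 2 and 0 at an unadjusted p under 0.05 in that order. Extracellular matrix and CSPG genes had a median of 0.63 and matrix metalloproteinase and ADAMTS genes 0.22, with 0 passing limma-trend or edgeR, 1 called higher by DESeq2 in each, and 4 and 5 at an unadjusted p under 0.05. DNA replication (-0.28), cholesterol synthesis (-0.02), immediate early (-0.30) and ATF4 amino acid response genes (0.01) had 0 passing in any of the tests, with 1, 0, 0 and 1 at an unadjusted p under 0.05.

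Of 33 genes the study names, 30 were measured and 0 passed limma-trend, edgeR or DESeq2, with 3 at an unadjusted p under 0.05. Tubb3, the neuronal tubulin, had 186, 179 and 164 normalized counts at FT 2 weeks and 260 at FT 1 week (-0.56, SE 0.598, adjusted p = 0.869). Fgfr4, a fibroblast growth factor receptor, had 11.5, 6.64 and 11.3 against 10.3 (-0.10, adjusted p = 0.985), so that FT 1 week lay among the libraries of FT 2 weeks. Serpina3n, a reactive astrocyte gene, had 1069, 919 and 1130 against 1666 (-0.69), and C4b, a complement component with a near copy in C4a, 1489, 717 and 775 against 1629 (-0.79).

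The same interval after the milder lesion was taken as a comparison. Between HS 2 weeks and HS 1 week limma-trend called 0 genes, with 266 at an unadjusted p under 0.05; edgeR called 0 with its quasi-likelihood test and 1 with its likelihood ratio test, and DESeq2 0. For the 63 genes called after full transection, the hemisection differences spanned -0.77 to 0.78 on the log2 scale. Whether the change over time differed between the lesions was tested directly with an interaction term, which called 14 genes (0.0854% of all). The difference after full transection lay below that after hemisection in 11 and above it in 3. The 14 genes include 5 listed GTPases: Iigp1, Gbp2, Gbp4, Tgtp1 and Tgtp2. The interaction for Iigp1 was -6.10 (SE 0.741, adjusted p = 0.014), where HS 2 weeks minus HS 1 week was 0.12, and that for Susd4 was 5.77 (SE 0.594, adjusted p = 0.00672), where the hemisection difference was -0.13. The count of 14 became 2 to 38 when single libraries were dropped: 2 without HS 2 weeks replicate 1 and 38 without HS 1 week replicate 3.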

How the data were processed

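RNA of sorted eGFP+ cells was sequenced from the polyadenylated fraction. Per the submitters' notes, the authors used TopHat2 2.0.9 for alignment to mm10, HTSeq 0.5.4p3 for counting and edgeR 3.3.6 for normalization by library size, after removal of genes with low counts. Deposited values are a signal: read counts over 1 factor per library. Reads were recovered from them (100% whole within 1e-06; 8270643 to 15562378 per library). Counting intervals cover counting error only.

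The log2 of normalized counts, with 1 added, entered limma-trend (limma 3.58.1, R 4.3.3) over all 12 libraries with 1 term per group, for 16388 of 16389 genes (group mean of 0.5 or more somewhere). FT 1 week, a lone library, takes its spread from the others. Called genes had a Benjamini-Hochberg adjusted p under 0.05 over all genes and a 2-fold change. Recovered reads were tested with edgeR 4.0.16 and DESeq2 1.42.0. The test code was tested on simulated data. Members and lists were chosen with earlier results of these data known. Named genes were the 15 largest rises and 15 largest falls among called genes with every FT 2 weeks library on 1 side and a higher mean of at least 5, up to 3 called members per list (otherwise its 2 most abundant), genes the study names and up to 5 interactions per direction. Further called genes and list members were named after their values were seen. Positions are from GENCODE (GRCm38) and promoters from RefSeq. Alternatives were other pseudocounts, filters, scalings, weights and model groups, a covariate, and each replicate left out. Some called genes are counted but not reported here by name.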

Additional observations from a re-analysis of the deposited data

Results flagged for a closer look

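In 14 genes the change over time after full transection (FT 2 weeks minus FT 1 week) differed from that after hemisection (HS 2 weeks minus HS 1 week) by the interaction term of limma-trend, with adjusted p between 0.00151 and 0.0458. The difference of differences, on the log2 scale, was -6.10 for Iigp1, -5.81 for Gbp1, -5.60 for Gm12250, -5.04 for Gbp4, -4.71 for Tgtp2, -4.62 for Gbp2 and -3.69 for Tgtp1, all GTPase genes. It was -4.88 for Gm15070, -4.66 for Mrap2, -3.91 for Ly6i and -3.67 for Klrk1, which also fell after full transection. It was 5.77 for Susd4, 5.32 for Jakmip1 and 3.44 for Hoga1, which rose after full transection. The hemisection differences of the 14 genes were small and of both signs, between -0.55 (Hoga1) and 0.75 (Gbp4). All 14 rest on the single FT 1 week library, which was the highest of 12 libraries for the 11 genes that fell and the lowest for the 3 that rose.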

How the results depend on the processing

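The count of 63 calls (FT 2 weeks vs FT 1 week) became 1543 with only FT libraries in the model, 295 with array weights, 40 with edgeR's quasi-likelihood test, 184 with its likelihood ratio test and 220 with DESeq2. It ranged between 36 and 93 without 1 replicate (38 without FT 2 weeks replicate 1, 36 without FT 2 weeks replicate 2). A pseudocount of 0.25 gave 46 calls (20 higher, 26 lower), one of 4 gave 80 (8 higher, 72 lower), and DESeq2 split 111 to 109. Listed GTPases called lower numbered 11 to 18 in all alternatives, against 14. The count of 14 for the time by severity interaction became 51 with a pseudocount of 4, 7 with the same total per library, 9 with FT and HS libraries alone, 110 with weights, 39 with the covariate, 9, 95 and 117 with the 3 count tests in the order above, and 9 without NI libraries (chosen after the values were seen); without 1 replicate it lay between 2 and 38. The count of 0 for HS 2 weeks vs HS 1 week became 1 with the likelihood ratio test. The cause of these changes was not tested. Of 35 named called genes, 17 kept their call in all 25 alternatives, Iigp1, Gbp1, Susd4 and Jakmip1 among them, and Ciita, Slc26a9 and Stap1 in 15. Scaling to the same total moved the median of all genes to 0.12. No paired analysis was possible because the FT 1 week library carries no replicate number; for hemisection, the fit with the replicate block called 0 genes, as did that without it. Genes with few reads at FT 1 week are limited by depth.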
